A study of Mus musculus with 18 samples.

Results

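The genes that separated the epidermis of mice lacking the aryl hydrocarbon receptor (AhR) from that of wild-type littermates before injury and at both times after it were sought in 18 arrays. For each of 23521 array rows that name 1 gene, the mean of the knockout arrays minus that of the wild-type arrays was taken at 0, 6 and 24 h and averaged over the 3 times with equal weight. A row was kept where this averaged difference passed limma's moderated test (Benjamini-Hochberg adjusted p under 0.05 over all rows) and its sign was the same at each time. This gave 80 rows, each of a different gene, of which 71 were lower and 9 higher in the knockout.

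The knockout (KO, AhR-/-) mice were of the line B6.129-AhRtm1Bra/J, which carries a null allele of Ahr in every cell, and the wild type (WT, AhR+/+) were their littermates. All were female, on a mixed B6;129 background, and their ages are not stated. Shaved back skin was stripped 5 times with adhesive film, which lifts off the outermost dead layers, and epidermal sheets were taken 6 h or 24 h later, or from skin before stripping (0 h). Each genotype had 9 arrays, 3 per time, so that KO at 0, 6 and 24 h and WT at 0, 6 and 24 h form 6 groups. Littermates are named for each time, and each array was counted as 1 sample; if any samples were not separate animals, the p-values would measure a partly technical spread. The small number of arrays limits the precision of every value.

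AhR is a transcription factor of the bHLH-PAS family that waits in the cytoplasm until it binds a ligand, such as a plant indole, a tryptophan photoproduct or a pollutant. It then enters the nucleus, pairs with ARNT and binds DNA at a short core, GCGTG, near genes such as Cyp1a1. In mouse skin it is present in keratinocytes and Langerhans cells, and it is known to be needed in mice for the upkeep of the gamma-delta T cells that live among the keratinocytes.

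The deposited values are taken as log2 and had been centred by row, so that the median of a row over the 18 arrays is 0. They show how arrays differ and hold no level. A labelled tissue could therefore not be checked against its marker genes, and genes cannot be ranked by abundance. In a bulk sample, fewer cells of a type and less RNA per cell cannot be told apart. All differences below are KO minus WT on the log2 scale, with the SE of the fit, and come from 9 KO and 9 WT arrays unless a time is named.

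Promoter sequence of 3 members that were lower in KO is shown with the AhR core in mind. Mfge8 and Cd3g are the members with the largest differences whose upstream window lay wholly outside the gene's own span, and Prkacb (-0.39, SE 0.0578), a catalytic subunit of protein kinase A, is, after Mfge8, the lower member of largest difference whose window holds the core and lies outside the gene's span; another of its windows holds none. Each run is the 250 bases before a transcription start in RefSeq, build GRCm38.p6, written 5' to 3' on the gene's strand, with GCGTG or its reverse complement CACGC in capitals. The positions are chr7:79149061-79149310 (minus strand) for Mfge8, chr3:146812947-146813196 (minus strand, 1 of 3 windows of the gene) for Prkacb and chr9:44980432-44980681 (minus strand) for Cd3g.
Mfge8: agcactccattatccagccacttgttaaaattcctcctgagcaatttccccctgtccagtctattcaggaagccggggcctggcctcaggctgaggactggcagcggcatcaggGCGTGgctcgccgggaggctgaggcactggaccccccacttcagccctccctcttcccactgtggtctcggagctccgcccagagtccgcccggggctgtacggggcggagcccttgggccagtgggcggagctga
Prkacb: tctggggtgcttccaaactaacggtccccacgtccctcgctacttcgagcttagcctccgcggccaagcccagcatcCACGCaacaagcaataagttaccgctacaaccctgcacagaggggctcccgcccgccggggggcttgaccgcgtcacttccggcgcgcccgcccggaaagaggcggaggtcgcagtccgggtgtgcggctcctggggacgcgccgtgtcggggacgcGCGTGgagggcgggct
Cd3g: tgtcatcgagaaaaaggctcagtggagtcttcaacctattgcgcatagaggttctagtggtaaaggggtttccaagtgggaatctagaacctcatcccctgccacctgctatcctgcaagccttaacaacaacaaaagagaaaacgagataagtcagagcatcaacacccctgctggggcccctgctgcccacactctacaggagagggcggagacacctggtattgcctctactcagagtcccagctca
The Mfge8 core begins 136 bases before the start, the Prkacb cores begin 173 and 16 bases before it, and the Cd3g window holds none. On either strand, GCGTG lies in 34.2% of the 20520 windows of this length that belong to genes tested, so a match by itself is common. Of the 80 members 58 (72.5%) had a window, as did 16918 of the 22180 genes tested. In longer windows that run past the start, 19 of 52 lower members (36.5%) and 5 of 6 higher members held the core. Among all genes tested that had a window the share was 42.0%. These shares were not tested, and members without a window are left out of them. A match is a description of letters and not a binding site.

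Ahr itself was looked at first, since it checks the labels. At 0 h it had -0.13, 0.04 and -0.02 in KO and 0.63, 0.16 and 0.07 in WT. At 6 h the KO arrays had -0.63, -0.65 and -0.77 and the WT arrays 0.06, 0.58 and 0.64. At 24 h KO had -0.59, -0.74 and -0.64, and WT -0.01, 0.12 and 0.01. Every KO array lay below every WT array of its time, by little at 0 h and clearly at 6 and 24 h. The averaged difference was -0.71 (SE 0.0827, limma adjusted p = 0.000939), a level 1.64-fold higher in WT. An exact 2-sided permutation of the genotype within each time gave p = 0.00025, the smallest that its 8000 assignments allow. The null allele lacks part of the gene, and a row that reads other exons would still give signal, so the check of the labels is only partial. Ahr lost limma's call without the arrays of 6 h (-0.51, adjusted p = 0.107) or of 24 h (-0.72, adjusted p = 0.061). Of the 163 tested rows of genes within 20 Mb of Ahr, 0 passed by limma and 30 had an unadjusted p under 0.05. Over all rows 0.374% passed and 12.3% had such an unadjusted p, so 0 of 163 says little. The nearest to passing were Rps7 (adjusted p = 0.0597) and Grhl1 (adjusted p = 0.095). On the rest of chromosome 12, 2 of 634 rows passed (0.315%), those of Tnfaip2 and Rhob.

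Over all rows, 88 passed the averaged test (0.374%), 76 of them lower (0.323%) and 12 higher in KO (0.051%), and 2884 (12.3%) passed 0.05 before adjustment. Of these 88, the 80 members (0.34% of rows) had 1 sign at all times, 71 lower (0.302%) and 9 higher (0.0383%). Agreement of sign by itself is common, being found in 26.5% of all rows. The other 8 passed on average but changed sign with time: Slco2b1, Ank, Kif16b, Zbtb22 and Clstn1 among the lower, and Thoc3, Cd59a and Il1b among the higher. The median difference was -0.34 over the lower and 0.58 over the higher members, against 0.000279 over all rows. Most were small: 6 of the lower members passed -1, while 29 of the 80 differed by less than 1.25-fold. KO and WT arrays did not overlap at any of the 3 times in 33 of the 71 lower members, a pattern that 0.196% of all rows show in that direction, and in 2 of the 9 higher members, against 0.0255% of all rows. Since the members were selected for a large difference against their spread, this lack of overlap is a description.

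The number of rows that passed depended on single arrays. The signs of the members' averaged differences did not change. Since members were selected for a large difference against their spread, this was largely fixed in advance. Leaving out WT 6 h replicate 1 gave 322 passing rows, of which 253 had 1 sign, and leaving out KO 6 h replicate 1 gave 289 and 232. Without KO 24 h replicate 3 there were 133 and 105. The count dropped to 44 without WT 6 h replicate 2, to 49 without WT 6 h replicate 3, to 50 without KO 24 h replicate 1, to 55 without KO 0 h replicate 2 or KO 6 h replicate 3, and to 58 without KO 24 h replicate 2. Without WT 24 h replicate 2, in which the hair follicle genes stood apart, 59 rows passed, 55 had 1 sign, and 50 members were among them. Of the 80 members, 40 passed whichever array was left out. Leaving out a time mattered as much: 194 rows passed without the arrays of 0 h, 13 without those of 6 h and 30 without those of 24 h, among them 43, 12 and 22 of the members. Without the 2 arrays of widest spread, KO 0 h replicate 3 and WT 0 h replicate 1, chosen after the data were seen, 38 rows passed and 37 had 1 sign. A 4-digit number in the labels, of unknown meaning, was split at 3000 as a possible batch: 8 rows passed in the 7 arrays numbered below 3000 and 3 in the 11 from 3000 up, and every member kept its sign in both. All 6 arrays of 24 h are numbered from 3000 up, and the lower class holds 1 KO and 2 WT arrays of 0 h and 2 of each genotype of 6 h. The number class therefore goes with time, and the 2 subsets average different times.

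The 4 members with the smallest adjusted p, Trgv5, Trat1, Cd3e and Rgs1, were all on the list of epidermal T cell genes. Trgv5 encodes the V segment of the T cell receptor gamma chain on the gamma-delta T cells resident in mouse epidermis. At 0 h it had -1.01, -2.37 and -1.96 in KO and 1.11, 1.48 and 1.39 in WT. At 6 h KO had -1.67, -1.28 and -0.71 and WT 1.59, 1.51 and 1.52, and at 24 h KO had -1.82, -1.65 and -2.05 and WT 1.48, 1.2 and 0.71. All 9 KO arrays were below 0 and all 9 WT arrays above it, so the genotypes did not overlap at any time. The averaged difference of -2.94 (SE 0.17, limma adjusted p = 7.56e-07) means a level 7.70-fold higher in WT. It was -3.11, -2.76 and -2.97 at 0, 6 and 24 h, and -2.48 and -3.17 in the arrays numbered below and from 3000.

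Cd3e, a signalling chain of the T cell receptor complex, had -0.48, -0.62 and -1.09 in KO and 0.59, 1.11 and 0.93 in WT at 0 h. The arrays of 6 h gave -0.63, -0.18 and -0.36 in KO and 0.98, 0.56 and 1.14 in WT, and those of 24 h -0.65, -1.06 and -0.77 in KO and 1.06, 0.49 and 0.18 in WT. The genotypes did not overlap, and the WT arrays of 24 h lay nearest to the KO arrays. Cd3e fell by 1.43 (SE 0.132, adjusted p = 0.000118).
Cd3g, another chain of the same complex, had a lowest, median and highest value of -1.62, -0.96 and 0.02 in KO and -0.08, 0.65 and 0.81 in WT. It fell by 1.40 (SE 0.186, adjusted p = 0.00267). Trat1, an adaptor of the same complex, had -0.66, -0.34 and 0.01 in KO and -0.00, 0.71 and 1.22 in WT. These 2 genes overlapped between genotypes only across times, not within one. Trat1 fell by 1.0 (SE 0.0843, adjusted p = 7.06e-05), a difference that was -1.40 at 0 h, -0.88 at 6 h and -0.73 at 24 h. Without the arrays of 6 h Cd3g was at -1.505 (limma adjusted p = 0.0713). Cd3e (-1.505, adjusted p = 0.0074) and Trat1 (-1.06, adjusted p = 0.00157) still passed there.

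Further lower members are known from lymphocytes. Cd7, a co-receptor of T and NK cells, had a lowest, median and highest value of -1.56, -0.83 and -0.08 in KO and 0.08, 0.88 and 1.24 in WT, and fell by 1.71 (SE 0.18, adjusted p = 0.000386). Il2rb, the beta chain of the receptors for interleukins 2 and 15, had -0.52, -0.32 and -0.06 in KO and 0.06, 0.30 and 0.49 in WT, and fell by 0.60 (SE 0.0634, adjusted p = 0.000386). Neither gene overlapped between genotypes. Rgs1, a brake on chemokine receptor signalling, fell by 0.78 (adjusted p = 0.000118), most at 0 h (-1.29) and less at 6 h (-0.45) and 24 h (-0.60). Cd96, a receptor for nectin-like proteins on T and NK cells, fell by 0.62 (adjusted p = 0.00106) with near equal differences of -0.53, -0.67 and -0.67 at 0, 6 and 24 h. Dock8, an exchange factor for Cdc42 that lymphocytes need to migrate through skin (-0.49, adjusted p = 0.0116), and Ptpn22, a phosphatase that dampens T cell receptor signalling (-0.28, adjusted p = 0.0142), were also members and are named after their values were seen.

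In the list of 24 measured epidermal T cell genes, 7 passed (29.2%, against 0.374% of all rows), all lower. The list's median was -0.18 against 0.000279 over all rows. The list's mean over genes lay between -0.472 and -0.0355 in the 9 KO arrays and between 0.000715 and 0.401 in the 9 WT arrays. The genotypes lay close but did not overlap. This mean includes the 7 passing genes, which were selected for their difference, so the lack of overlap is a description. The list was also chosen with earlier results of these data known. The other 17 did not pass. They include Ptprc, the phosphatase on all leukocytes (-0.42, adjusted p = 0.126), Il7r (-0.36, adjusted p = 0.0835) and Cd3d (-0.14, adjusted p = 0.629), as well as Cd2 (0.01) and Cd28 (-0.00). Skint genes, of which Skint1 is needed in mice for these T cells to be selected in the thymus, had 0 of 11 genes passing by limma, 0 with an unadjusted p under 0.05, and a median of 0.03. That average joins opposite signs, with list medians of 0.489 at 0 h, -0.227 at 6 h and -0.254 at 24 h. The mean over Skint genes lay between 0.66 and 0.81 in KO and between 0.14 and 0.39 in WT at 0 h, while at 24 h it lay between -0.45 and -0.26 in KO and between -0.24 and -0.12 in WT. Cd8a, the alpha chain of the CD8 co-receptor, was higher in KO by 0.31 (SE 0.0522, adjusted p = 0.0154), with a lowest, median and highest value of -0.06, 0.15 and 0.61 in KO and -0.21, -0.08 and 0.01 in WT. Without the arrays of 6 h Cd8a was at 0.19 (adjusted p = 0.538).

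Among genes of killing and NK receptors, 3 of 21 passed (14.3%, against 0.374% of all rows), all lower. Prf1, the pore-forming protein perforin, had a lowest, median and highest value of -0.73, -0.37 and -0.14 in KO and 0.14, 0.20 and 0.66 in WT, without overlap. It fell by 0.73 (SE 0.0811, adjusted p = 0.000561). Nkg7, a protein of cytotoxic granules, fell by 0.57 (adjusted p = 0.0116), by nearly the same amount at 0 h (-0.60), 6 h (-0.59) and 24 h (-0.54). Klrb1b, an inhibitory lectin receptor, fell by 0.85 (adjusted p = 0.00491), with -1.25 at 0 h and -0.41 at 24 h, where the genotypes overlapped. Without the arrays of 6 h Nkg7 was at -0.57 (limma adjusted p = 0.167) and Klrb1b at -0.83 (adjusted p = 0.107). Prf1 still passed there (-0.78, adjusted p = 0.0152). The list's median was -5.37e-05, near that of all rows, and the granzymes Gzmb (0.03), Gzma (0.02) and Gzmc (0.46, adjusted p = 0.176) did not pass. The cysteine protease inhibitor genes Ctla2a (-0.80, adjusted p = 0.00152) and Ctla2b (-0.33, adjusted p = 0.0154) were both lower. The near-identical relatives in the Ctla2 and Klrb1 families may share probe signal, so their separate values are uncertain. How much of these differences goes with the number of T cells was not tested.

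**Figure D1:**
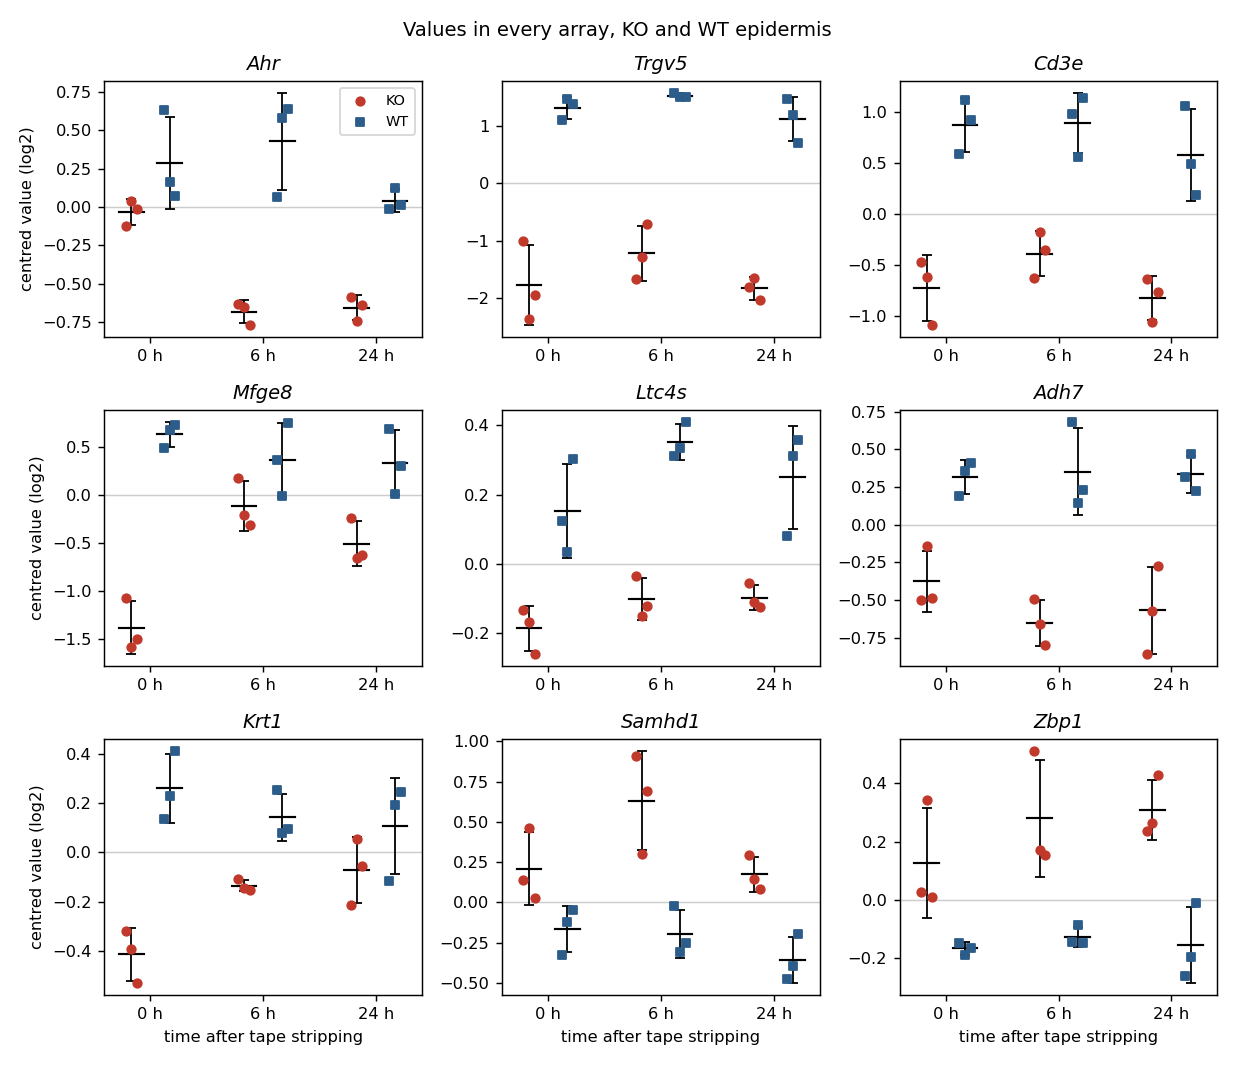
Centred log2 values (vertical axis) of 9 genes in every array, by time after tape stripping in hours (horizontal axis), with KO in red left of WT in blue; bars are the mean and SD of 3 arrays. All KO arrays of Trgv5 lie below 0 and all WT arrays above it, Mfge8 is lowest in KO at 0 h, and Samhd1 and Zbp1 are higher in KO at each time.

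The 2 members on the Langerhans cell and MHC class II list, Mfge8 and Ltc4s, were the only ones of 29 to pass. This is 6.9% of the list, against 0.374% of all rows. Mfge8 encodes a secreted bridge between dying cells and phagocytes. At 0 h it had -1.07, -1.58 and -1.50 in KO and 0.49, 0.68 and 0.73 in WT. KO had 0.18, -0.21 and -0.31 and WT 0.37, -0.01 and 0.76 at 6 h, while KO had -0.24, -0.65 and -0.63 and WT 0.69, 0.01 and 0.31 at 24 h. The genotypes were far apart at 0 h, overlapped at 6 h and were apart again at 24 h. Mfge8 fell by 1.11 on average (SE 0.121, adjusted p = 0.000509), but its differences of -2.01, -0.48 and -0.84 at 0, 6 and 24 h were uneven, and without the arrays of 0 h it was at -0.66 (adjusted p = 0.0689). The list as a whole had a median of -0.02, and its defining gene Cd207, which encodes langerin, was at -0.29 (adjusted p = 0.338), with -0.70 at 0 h and 0.05 at 6 h. The MHC class II genes H2-Aa (0.05), H2-Ab1 (-0.02) and H2-Eb1 (0.09) did not pass, and the mean over the list overlapped, from -0.414 to 0.0978 in KO and from -0.19 to 0.186 in WT.

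Several members belong to the leukotriene pathway, a grouping made after their values were seen. Ltc4s, the synthase of leukotriene C4, had -0.13, -0.17 and -0.26 in KO and 0.13, 0.03 and 0.30 in WT at 0 h. It had -0.03, -0.15 and -0.12 in KO and 0.31, 0.34 and 0.41 in WT at 6 h, and -0.06, -0.11 and -0.12 in KO and 0.08, 0.31 and 0.36 in WT at 24 h. The difference of -0.38 (SE 0.0445, adjusted p = 0.000939) was small, but no KO array reached a WT array, and it was nearly even over time (-0.34, -0.45 and -0.35). Alox5, the lipoxygenase that starts leukotriene synthesis, fell by 0.56 (SE 0.0926, adjusted p = 0.0154), with -0.82 at 0 h, -0.69 at 6 h and -0.16 at 24 h. A further row of Alox5 had -0.06 (adjusted p = 0.873), so its rows disagree. Dpep2, a dipeptidase that trims leukotriene D4, fell by 0.72 (SE 0.0857, adjusted p = 0.000951), and its other row had 0.28 (adjusted p = 0.327). Pla2g5, a secreted phospholipase A2, fell by 0.31 (adjusted p = 0.0154). Without the arrays of 6 h Alox5 was at -0.49 (limma adjusted p = 0.306), Pla2g5 at -0.32 (adjusted p = 0.269) and Ltc4s at -0.34 (adjusted p = 0.118). Dpep2 still passed there (-0.80, adjusted p = 0.0219). The list of prostaglandin and lipoxygenase metabolism had a median of -0.07. Of its 23 measured genes 2 passed (8.7%, against 0.374% of all rows), Ltc4s and Alox5. Alox5ap, the activating protein of the lipoxygenase (-0.03, adjusted p = 0.959), and Lta4h (0.07, adjusted p = 0.731) did not.

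Adh7, an alcohol dehydrogenase that also oxidises retinol, was, among the lower members on the named lists, the one with the largest difference outside the immune cell lists. At 0 h it had -0.50, -0.14 and -0.48 in KO and 0.19, 0.35 and 0.41 in WT. At 6 h KO had -0.50, -0.66 and -0.80 and WT 0.68, 0.14 and 0.23, and at 24 h KO had -0.86, -0.57 and -0.28 and WT 0.32, 0.47 and 0.22. All KO arrays were below 0 and all WT arrays above it. Adh7 fell by 0.87 (SE 0.091, adjusted p = 0.000386), and its differences of -0.69, -1.01 and -0.90 were close to each other. It was the 1 gene of 29 of retinoid metabolism to pass (3.45%, against 0.374% of all rows), the list's median being -0.02. Tnfaip2, a gene first found through its induction by TNF, fell by 0.65 (SE 0.102, adjusted p = 0.0118), with -1.02 at 0 h and -0.35 at 24 h.

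Of the 12 measured genes on the list of classical AhR targets 1 passed (8.33%). By limma 5 had an unadjusted p under 0.05, and 5 had 1 sign at all times. Over all rows the shares were 0.374% passing, 12.3% with an unadjusted p under 0.05 and 26.5% with 1 sign. The gene that passed was Nfe2l2, the transcription factor NRF2 of the oxidative stress response. It fell by 0.25 (SE 0.0496, adjusted p = 0.0428), and its lowest, median and highest values were -0.28, -0.09 and 0.02 in KO and -0.06, 0.14 and 0.43 in WT, which overlap. Nfe2l2 passed in 4 of 18 fits that each left out 1 array. The list's median was -0.16, and 8 of the 12 differences were negative. The cytochromes P450 Cyp1a1 (-0.20, adjusted p = 0.304) and Cyp1b1 (-0.27, adjusted p = 0.239), the quinone reductase Nqo1 (-0.24, adjusted p = 0.245), the aldehyde dehydrogenase Aldh3a1 (-0.24, adjusted p = 0.303) and Tiparp (-0.26, adjusted p = 0.486) did not pass, although all but Cyp1b1 were negative at each time. Cyp1b1 was at 0.11, -0.59 and -0.33 at 0, 6 and 24 h, and passed without the arrays of 0 h (-0.46, adjusted p = 0.0152). The AhR repressor Ahrr was at -0.04 and Cyp1a2 at 0.00. These genes have 95% intervals that leave room for moderate differences, such as -0.36 to -0.03 for Cyp1a1 and -0.47 to -0.07 for Cyp1b1. The others did not pass either: Cyp2s1 (-0.12), Lpcat2 (0.11), Slc7a5 (0.09) and Xdh (0.06) had adjusted p between 0.728 and 0.915. Cyp1a2 and Xdh turn negative after a second quantile normalisation (-0.00128 and -0.00348). Among 11 genes measured on the list of AhR and its partners, Ahr alone passed (9.09%).

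Of the keratinocyte lists, 2 of 42 genes passed for the cornified envelope (4.76%), 1 of 16 for basal keratinocytes (6.25%) and 1 of 29 for barrier lipids (3.45%). Over all rows 0.374% passed, and 12.3% had an unadjusted p under 0.05. By limma 0 of 29 passed for tight junctions and desmosomes (13 at an unadjusted p under 0.05) and 0 of 34 for epidermal proteases and their inhibitors (14). Krt1, a keratin of the differentiating layers, had -0.32, -0.39 and -0.53 in KO and 0.14, 0.23 and 0.41 in WT at 0 h. At 6 h it had -0.11, -0.14 and -0.15 in KO and 0.25, 0.08 and 0.10 in WT, and at 24 h -0.21, 0.06 and -0.06 in KO and -0.12, 0.19 and 0.24 in WT. The genotypes were apart at 0 and 6 h and overlapped at 24 h. Krt1 fell by 0.37 (SE 0.0575, adjusted p = 0.0115), with -0.67, -0.28 and -0.18 at 0, 6 and 24 h, and was at -0.23 (adjusted p = 0.144) without the arrays of 0 h. Evpl, the envoplakin that anchors the cornified envelope to desmosomes, fell by 0.30 (SE 0.0499, adjusted p = 0.0154). These 2 were the only genes of the 42 measured on the cornified envelope list to pass, and the list's median was -0.10. Of the 42 differences 30 were negative and 12 positive, and they ranged from -0.445 to 0.894. Krt10, the partner of Krt1 (-0.13, adjusted p = 0.138), Ivl (-0.44, adjusted p = 0.122) and Flg (-0.36, adjusted p = 0.318) had 1 sign at all times but did not pass.

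Lamb3, a chain of the laminin under basal cells, fell by 0.39 (SE 0.0629, adjusted p = 0.0142) as the 1 gene of 16 on the basal keratinocyte list. Its difference was -0.68 at 6 h and -0.12 at 24 h, where the genotypes overlapped. Smpd1, an acid sphingomyelinase that yields barrier ceramides, fell by 0.31 (SE 0.0552, adjusted p = 0.0242), the 1 of 29 barrier lipid genes to pass, although its other row had 0.02 (adjusted p = 0.941). Il1f5, which encodes the interleukin 36 receptor antagonist, fell by 0.43 (SE 0.0763, adjusted p = 0.0224), and its difference was -0.15 at 0 h against -0.80 at 6 h. Egr3, an early growth response factor, fell by 0.39 (SE 0.0733, adjusted p = 0.0297) at similar sizes of -0.26, -0.48 and -0.44. It was the 1 of 32 immediate early genes to pass (3.12%, against 0.374% of all rows). Of the 32, 28 had a negative average. The list's median was -0.16 on average, 0.0155 at 0 h and -0.38 at 6 h. Without the arrays of 6 h, Lamb3 was at -0.24 (adjusted p = 0.432), Smpd1 at -0.20 (adjusted p = 0.625) and Il1f5 at -0.24 (adjusted p = 0.658). Of the 18 fits that each left out 1 array, Il1f5 passed in 10, and Egr3 and Smpd1 in 7 each.
Further members known from keratinocytes are named after their values were seen. They are Ovol1, a factor of epidermal differentiation (-0.62, adjusted p = 0.0464), the kinase Ripk4 (-0.38, adjusted p = 0.0258), Tgm7 of the transglutaminases (-0.37, adjusted p = 0.0223), Krt78 (-0.27, adjusted p = 0.0236), the polarity gene Scrib (-0.36, adjusted p = 0.0426) and the alkaline ceramidase Acer2 (-0.34, adjusted p = 0.024). All but Acer2, Scrib and Tgm7 had their largest difference at 6 h. Hpse, the heparanase that cuts heparan sulphate, fell by 0.42 (SE 0.0661, adjusted p = 0.0116) with -0.10 at 0 h and -0.81 at 6 h, and its other row had 0.01 (adjusted p = 0.917). Without the arrays of 6 h Hpse was at -0.23 (adjusted p = 0.502), Ripk4 at -0.22 (adjusted p = 0.685) and Krt78 at -0.15 (adjusted p = 0.696). With 1 array left out, Tgm7 passed in 13 of 18 fits, Krt78 in 12, Acer2 in 10, Ripk4 in 7, Ovol1 in 6 and Scrib in 4.

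**Figure D2:**
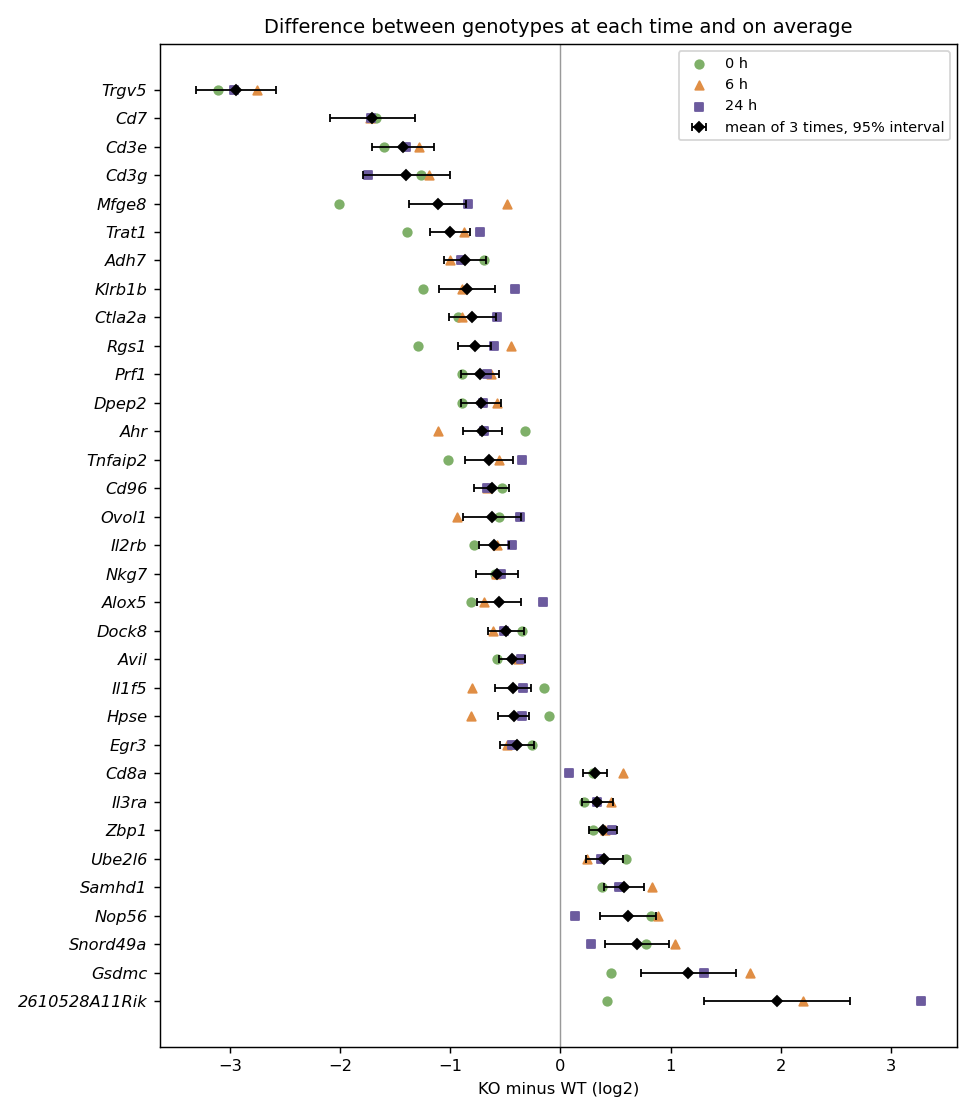
KO minus WT differences (horizontal axis, log2) of the 24 lower members with the largest size and of all 9 higher members (vertical axis). Coloured points are the differences at 0, 6 and 24 h, and black diamonds with bars are their mean and its 95% interval. Trgv5 stands apart at -2.94, while Mfge8 and 2610528A11Rik have points far from each other.

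Among the 9 higher members were genes of nucleic acid sensing and of the interferon response, a grouping made after their values were seen. Samhd1, which removes nucleotides that viruses need, had 0.14, 0.46 and 0.02 in KO and -0.33, -0.12 and -0.05 in WT at 0 h. At 6 h it had 0.91, 0.30 and 0.69 in KO and -0.02, -0.31 and -0.25 in WT, and at 24 h 0.29, 0.15 and 0.08 in KO and -0.48, -0.40 and -0.20 in WT. Every KO array lay above every WT array. Samhd1 rose by 0.58 (SE 0.0842, adjusted p = 0.00723), a level 1.49-fold higher in KO. Zbp1, a sensor of nucleic acids in the Z form, had 0.03, 0.34 and 0.01 in KO and -0.15, -0.19 and -0.16 in WT at 0 h. At 6 h KO had 0.51, 0.17 and 0.16 and WT -0.15, -0.09 and -0.15, and at 24 h KO had 0.24, 0.26 and 0.43 and WT -0.26, -0.19 and -0.01. Again no array overlapped, and the rise of 0.39 (SE 0.0596, adjusted p = 0.0115) was even, at 0.29, 0.41 and 0.46. Samhd1 and Zbp1 are the 2 higher members without overlap at any time. Both lost limma's call when a later time was left out. Without the arrays of 6 h, Samhd1 was at 0.45 (adjusted p = 0.13) and Zbp1 at 0.38 (adjusted p = 0.127), and 0 higher rows passed. Without those of 24 h, Samhd1 was at 0.60 (adjusted p = 0.0947) and Zbp1 at 0.35 (adjusted p = 0.13).

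Ube2l6, the enzyme that conjugates the interferon-induced modifier ISG15, rose by 0.40 (SE 0.0778, adjusted p = 0.0402), though its arrays overlapped at 6 and 24 h and it passed in 5 of 18 fits that each left out 1 array. On the list of 29 measured interferon response genes only Zbp1 passed (3.45%, against 0.374% of all rows). The list's median was 0.0964, with 25 positive differences, and its mean ran from -0.0299 to 0.318 in KO arrays and from -0.111 to 0.0211 in WT arrays. The interferon-induced GTPases Igtp (0.53, adjusted p = 0.0597), Irgm1 (0.38, adjusted p = 0.073) and Irgm2 (0.55, adjusted p = 0.109) were positive at all times without passing, and Isg15 was at 0.08 (adjusted p = 0.779).

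Gsdmc, of the gasdermins that form membrane pores, rose by 1.16 (SE 0.203, adjusted p = 0.0214), with 0.46, 1.72 and 1.31 at 0, 6 and 24 h. It lost the call without WT 6 h replicate 2 (adjusted p = 0.0562) or KO 24 h replicate 1 (adjusted p = 0.0513), and near-identical Gsdmc copies make the value uncertain. Without the arrays of 6 h Gsdmc was at 0.88 (limma adjusted p = 0.534), and without those of 24 h at 1.09 (adjusted p = 0.087). Nop56, a core protein of the particles that methylate ribosomal RNA, rose by 0.61 (SE 0.118, adjusted p = 0.0365), but 2 more rows of the gene had 0.08 (adjusted p = 0.9) and 0.31 (adjusted p = 0.24). Nop56 passed in 5 of 18 fits that each left out 1 array. Il3ra, the receptor chain for interleukin 3, rose by 0.33 (SE 0.0653, adjusted p = 0.0403) and also passed in 5 of 18. The remaining members, outside the rule for names, were the small nucleolar RNA Snord49a (0.70, adjusted p = 0.0415) and the unnamed model 2610528A11Rik (1.97, adjusted p = 0.0118). The difference of 2610528A11Rik was 0.42 at 0 h, 2.20 at 6 h and 3.28 at 24 h, so that it shared its sign over time but not its size.

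Whether a difference was of the same size at each time was tested by the genotype by time interaction. By limma, 12 rows passed (0.051%) and 2772 had an unadjusted p under 0.05 (11.8%). None of the 80 members passed, the smallest adjusted p being 0.0906 for Mfge8, but 34 of the 80 (42.5%) had an unadjusted p under 0.05. Both tests use the same estimate of a row's spread, so this share is not independent of how the members were chosen. A miss does not show equal size. For Trgv5 the difference at 6 h minus that at 0 h was 0.35 (95% interval -0.54 to 1.24), for Prf1 0.26 (-0.16 to 0.68) and for Cd3e 0.32 (-0.37 to 1.01). The intervals of Mfge8 (0.90 to 2.16), Rgs1 (0.47 to 1.22) and Ahr (-1.22 to -0.36) leave out 0.
More members had their largest difference at 6 h than at either other time. The matching share over all rows was not worked out. Members were selected on the mean of these same differences, so the counts only describe the selected rows. Among the lower members the largest difference was at 0 h in 24, at 6 h in 40 and at 24 h in 7, with medians of -0.32, -0.49 and -0.27 at the 3 times. Among the higher members it was at 0 h in 1, at 6 h in 6 and at 24 h in 2, with medians of 0.42, 0.83 and 0.37. The genes share a sign over time by the rule, and the data do not show that they share a size. Stripping itself, averaged over genotypes in a contrast added after the data were seen, changed 8.01% of all rows and 15 of the 80 members, 13 of them among the lower.

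**Figure D3:**
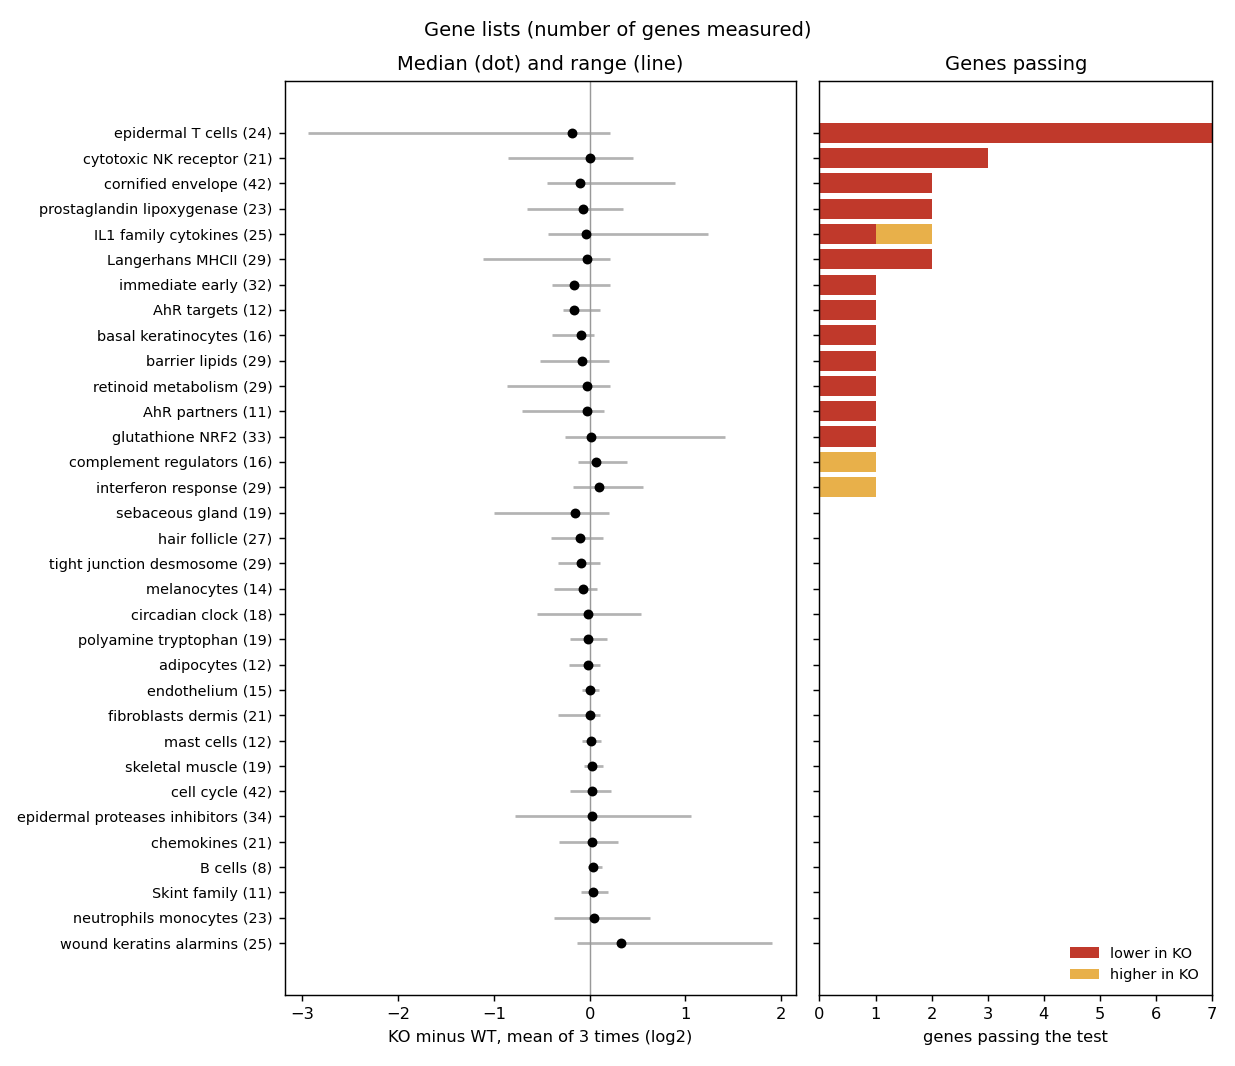
Left, the median (dot) and range (line) of the averaged KO minus WT difference (horizontal axis, log2) over the measured genes of 33 lists, with the number of genes in brackets; right, the number of genes of each list that passed, lower in red and higher in yellow. The epidermal T cell list has 7 passing genes, and the wound keratin list has the highest median, 0.325, with none.

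Of the 33 lists, 15 had a passing gene. The list of wound keratins and alarmins had a median of 0.325 with 22 of 25 differences positive, yet 0 passed by limma, and 12 had an unadjusted p under 0.05. Its median was -0.16 at 0 h, 0.61 at 6 h and 0.69 at 24 h. Krt6b, a keratin of stressed epidermis, was at -0.60, 3.21 and 3.12 (average 1.91, adjusted p = 0.0944). Lists of other cell types that a sheet could carry had no passing gene: dermal fibroblasts (median 0.00634 over 21 genes), endothelium (0.00515 over 15), skeletal muscle (0.02 over 19), adipocytes (-0.02 over 12), mast cells (0.02 over 12), B cells (0.03 over 8), melanocytes (-0.07 over 14), hair follicle (-0.10 over 27) and sebaceous gland (-0.15 over 19). Neutrophil and monocyte genes (0.05 over 23) had none either. Since only 0.374% of all rows passed, a count of 0 in lists of this size says little. By limma's unadjusted p under 0.05 the counts were 4 for fibroblasts, 1 for endothelium, 0 for muscle, 3 for adipocytes, 1 for mast cells and 1 for B cells. They were 3 of 14 for melanocytes, 4 of 27 for hair follicle, 8 of 19 for sebaceous gland and 5 of 23 for neutrophils and monocytes. The share over all rows was 12.3%, and of these lists sebaceous gland lay furthest above it. The mean over hair follicle genes was 0.846 in WT 24 h replicate 2 and at most 0.161 in the other 17 arrays, and the list's median at 24 h was -0.262. The part of these cells in the results was not tested.

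The threshold fell among rows of like size. Just inside it were Bicdl1 (-0.24, adjusted p = 0.0464), Podn (-0.18, adjusted p = 0.0483) and Acad9 (-0.29, adjusted p = 0.05), and just outside Pygb (-0.33, adjusted p = 0.0512), Rhbg (-0.34, adjusted p = 0.052) and Tppp (-0.36, adjusted p = 0.0531). Acad9 was at -0.16 (adjusted p = 0.748) without the arrays of 6 h, and Pygb, Rhbg and Tppp passed without those of 0 h.

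**Figure D4:**
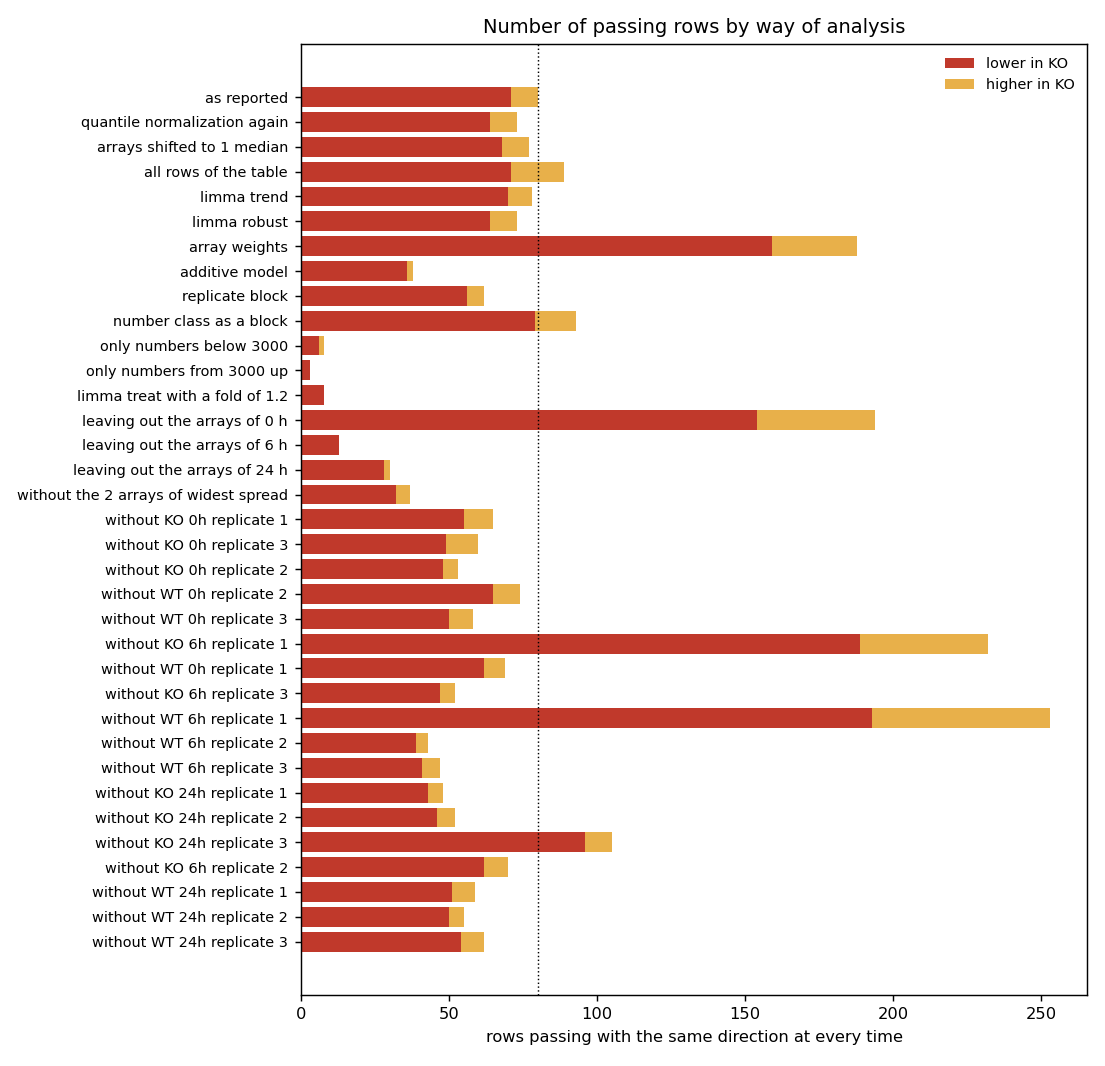
Number of rows that passed with 1 sign at every time (horizontal axis), lower in KO in red and higher in yellow, for each way of running the test and for each array left out (vertical axis); the dotted line marks the reported 80. The count ranges from 3 to 253, and lower rows outnumber higher ones in each bar.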

How the data were processed

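RNA from epidermal sheets was read on Affymetrix gene arrays, per the labels' protocols. The authors deposited 1 table of 33793 rows by 18 arrays. Its deposited values are taken as log2 from their range (-6.40 to 4.30), and a natural log cannot be told apart. Each row's median over the 18 arrays is 0 within 1e-06, in 100% of rows, so the row level was removed before deposit and no dim row could be filtered. No source used here gives how background, summary and normalisation were done. The median of an array lay between -0.0187 and 0.0107, and its SD over rows between 0.134 and 0.222.

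Groups and replicate numbers come from the sample titles. The platform's probe table gave 1 symbol to 23521 rows (22180 genes), several to 1814 and none to 8458, and only the first were tested. limma 3.58.1 in R 4.3.3 fitted a mean for each of 6 groups over all arrays (12 residual and 2.76 prior degrees of freedom), with 2-sided moderated tests adjusted by Benjamini-Hochberg over 23521 rows. The script was tested on simulated data with 200 shifted rows. It recovered 100% of log2 shifts of 1 and 88% of those of 0.5, and 12 of its 200 calls were false. Shifts under 0.5, the size of many members, were not simulated. Members and lists (33 lists, 740 of 803 genes measured) were chosen with earlier results of these data known. Named are Ahr, the 15 largest members per direction apart from unnamed models and small RNAs, up to 6 passing genes per list, AhR targets, the 3 rows either side of the threshold and the passing rows with the largest interaction; others are marked as named after their values were seen. For a gene with several rows, the row of largest SD over the 18 arrays stands in the lists. Promoter windows come from RefSeq, GRCm38.p6, and motifs were searched on both strands. Other ways of running the tests were another quantile normalisation, a median shift, all rows, limma's trend, robust, array weight and treat options, an additive model, blocks, number classes, and arrays or times left out.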

Additional observations from a re-analysis of the deposited data

Results flagged for a closer look

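Single arrays that stood far from the other 8 of their genotype were found in 10 of 198 sets of 9 values, or 5.05%, which is about the share that chance gives. In WT 6 h replicate 3, Ank was at 0.43, Arhgef19 at 0.66 and Ppfia3 at 0.24, with the next WT arrays at 0.15, 0.25 and 0.12. In KO 0 h replicate 3, Snord49a was at -0.65 and Tnfaip2 at -0.71, with the next KO arrays at 0.01 and -0.34. In WT 24 h replicate 2, Il1b was at -2.40 and Cyp1a1 at 0.44, with the next WT arrays at -0.94 and 0.13. Carmil1 was at 0.44 in WT 0 h replicate 1 (next 0.18), Egr3 at -0.56 in KO 6 h replicate 3 (next -0.26) and Xdh at 0.98 in KO 6 h replicate 1 (next 0.23).

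Among rows that passed on average, the genotype difference depended on time by limma's interaction test in Slco2b1, an organic anion transporter, and Clstn1, a calsyntenin. In Slco2b1 the KO minus WT difference at 6 h minus that at 0 h was -0.95 (95% interval -1.24 to -0.66, adjusted p = 0.0494), and in Clstn1 it was -0.82 (-1.08 to -0.56, adjusted p = 0.0494). Slco2b1 had 0.13 at 0 h, -0.82 at 6 h and -0.27 at 24 h, and Clstn1 had 0.13, -0.69 and -0.18, so neither has 1 sign at all times. Without the arrays of 6 h the averaged differences were -0.07 and -0.02.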

How the results depend on the processing

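The 88 passing rows, the 80 of 1 sign and the 12 of the interaction are given here in that order. A second quantile normalisation gave 81, 73 and 6, a shift to 1 median 84, 77 and 3, all table rows 96, 89 and 2, limma's trend 86, 78 and 3, its robust option 80, 73 and 2, and array weights 226, 188 and 420. The number class as a block gave 104, 93 and 2, numbers below 3000 alone 8, 8 and 198, and numbers from 3000 up 3, 3 and 0. Without the 0 h arrays there were 194, 194 and 0, without 6 h 13, 13 and 0, and without 24 h 30, 30 and 72. The first 2 counts were 38 and 38 in an additive model and 8 and 8 against a fold of 1.2. Leaving out 1 array gave 44 to 322, 43 to 253 and 0 to 161. Leaving out the 2 arrays of widest spread (KO 0 h replicate 3 and WT 0 h replicate 1), chosen after seeing the data, gave 38, 37 and 23. Where limma's interaction count was 0, 1455 rows (numbers from 3000 up), 1469 (without 0 h), 2426 (without 6 h), 2192 (without WT 0 h replicate 2) and 2186 (without WT 0 h replicate 3) had an unadjusted p under 0.05. The causes were not tested.

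Replicate numbers do not pair the samples: over 9 same-numbered KO and WT pairs, deviations correlated at -0.458 to 0.251, 1 pair was over 0.1, and 2 matched their own number best. With the replicate block 69 and 62 rows passed by limma, and 0 in the interaction (2670 at an unadjusted p under 0.05). Ahr's exact permutation p was 0.0556 with numbers below 3000 alone (-0.78), the smallest that its 18 assignments allow, and limma's adjusted p in the same arrays was 0.0384. No member changed sign in 34 settings. The rule itself fixes this where a time was left out. In the other settings the selection of members for a large difference against their spread makes a change unlikely. Trgv5 and Trat1 passed in all 34. Members still passing numbered 65 after quantile normalisation, 55 with the replicate block, 43 without 0 h, 12 without 6 h and 22 without 24 h.

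Sign changes were found in 4 AhR targets that never passed. Cyp1a2 had -0.00128 after quantile normalisation, -0.0102 with array weights, -0.0136 without 0 h, -0.00623 without 6 h, -0.0225 without the 2 widest arrays and -0.0283 to 0.02996 where 1 array was left out. Xdh had -0.00348 after quantile normalisation, -0.0214 with array weights, -0.21 with numbers below 3000, -0.078 without 6 h, -0.0878 without 24 h and -0.0432 to 0.119 where 1 array was left out. Slc7a5 had -0.212 with numbers below 3000, -0.0377 without 6 h, -0.0806 without 24 h and -0.0371 to 0.161 where 1 array was left out. Lpcat2 had -0.0965 with numbers from 3000 up and -0.017 without 0 h. With the row level removed, signal over background is unknown and limits what dim rows can show.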

Other observations

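A further pattern, noticed after the values were seen and given with no test, is the chromosome of the passing rows. Chromosome 2 holds 8.46% of the rows tested, and 6 of the 12 higher rows lie on it: Zbp1, Cd59a, Ube2l6, Samhd1, Nop56 and Il1b. Of the 76 lower rows, 7 lie there.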
